A study of Mus musculus with 194 samples.

Results

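The comparison described here set challenge against acute cocaine in the dorsal striatum (DS) of mice, in libraries that were sequenced together. It comprised 16 of the 72 DS libraries of the series, which holds 122 more from other structures. They were the DS libraries of a single sequencing run, the shared run below, that came from mice given either their first or their renewed exposure. There were 8 challenge mice and 8 acute mice, 2 per group at each of 0, 1, 2 and 4 h after the injection. Male C57BL/6OLAHSD mice arrived at 6 to 7 weeks of age and received 3 days of saline habituation injections. Acute mice then received a first intraperitoneal dose of cocaine (20 mg/kg), and their 0 h mice were cocaine-naive. Challenge mice received 5 daily doses, 21 days of abstinence and 1 further dose, and their 0 h mice were abstinent and did not receive the further dose. The challenge mice belonged to another cohort and were older when their tissue was taken, so that prior cocaine, age and cohort cannot be told apart in any difference below. The DS was dissected from 400 µm slices and measured by 3′-RNA-seq, which counts molecules near the 3′ end of a transcript.

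The DS is built mainly of spiny projection neurons, inhibitory cells that carry dopamine and opioid receptors and that receive most of the tissue's dopamine input. Between them lie sparse interneurons, bundles of myelinated axons, astrocytes and microglia, and the ventricle beside them is lined with ciliated ependymal cells and a zone in which new neurons arise. Cocaine blocks dopamine reuptake, after which spiny projection neurons transcribe immediate-early genes within the hour.

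The total count per library was 2096787 to 2704694 in the acute mice and 1269391 to 1805910 in the challenge mice, so that the acute libraries were all the deeper ones. The 2 mice of a challenge time point differed more from each other (chi-square per degree of freedom 3.42 to 3.68 over genes) than the 2 mice of an acute time point (1.56 to 1.78). The libraries held striatal markers, which do not set dorsal apart from ventral striatum: 27 listed markers of spiny projection neurons summed to 27240 to 29970 CPM, counts scaled to a common library size, in acute and 27360 to 29380 CPM in challenge mice. Listed genes of ventral striatum and septum summed to 1138 to 1282 CPM in acute and 1249 to 1658 CPM in challenge mice. Markers of choroid plexus summed to at most 47.09 CPM in any of the 16 libraries, and those of cortical excitatory neurons to 386.1 to 483.5 CPM. Genes were tested with edgeR's quasi-likelihood test with time as a covariate, and a gene was called at a Benjamini-Hochberg adjusted p below 0.05 and a fold above 1.2. Every log2 difference is challenge minus acute unless stated otherwise, and ± is its standard error.

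Of 10998 genes tested, 1186 were higher in challenge mice (10.8%) and 1014 were lower (9.22%). The median log2 difference over all tested genes was close to 0, which the scaling between libraries brings about. Most differences were small, since 54 of the genes called higher and 23 of those called lower passed a log2 difference of 1. The CPM of the 8 challenge mice lay wholly above those of the 8 acute mice for 300 genes (2.73% of those tested) and wholly below for 285 (2.59%).

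Myelin genes were lower in challenge mice. Of 36 genes of myelin and mature oligodendrocytes tested, 19 fell and 1 rose, against 9.22% and 10.8% of all tested genes, and the list's median log2 difference was -0.31. The CPM of 8 members did not overlap between the groups, all lower in challenge, against 2.59% of all tested genes. The summed level of the list was 15560 to 18070 CPM in acute mice and 10220 to 14280 CPM in challenge mice. In bulk tissue, fewer cells of a type and less RNA per cell cannot be told apart.

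Mbp encodes myelin basic protein, which compacts the myelin sheath. It ranged over 4712 to 5449 CPM in acute mice (median 4988) and over 2440 to 3784 CPM in challenge mice (median 2692). The log2 difference was -0.83 ± 0.04 (adjusted p = 2.8e-19), and no challenge mouse reached the lowest acute mouse. Cldn11, the tight-junction claudin of myelin, stood at 523.8 to 609 CPM in acute mice and 278.5 to 431.6 CPM in challenge mice, a log2 difference of -0.68 ± 0.06 (adjusted p = 1.8e-11). Mal, a lipid raft protein of myelin, differed by -0.66 ± 0.06 and Mobp by -0.52 ± 0.05. Fa2h makes the hydroxylated fatty acids of myelin lipids. Its level was 72.4 to 116 CPM in acute mice and 29.9 to 60.6 CPM in challenge mice (log2 difference -1.05 ± 0.12, adjusted p = 2.2e-09), again without overlap.

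The difference was of like size before the day's injection. At 0 h alone, with 2 mice a side, the log2 difference of Mbp was -0.91, that of Cldn11 -0.85 and that of Fa2h -1.24. At the later times together it was -0.80 for Mbp and -0.63 for Cldn11. Of 10 genes of precursors and newly formed oligodendrocytes, 3 fell and none rose, against 9.22% and 10.8% of all tested genes, among them Pdgfra, the receptor that marks the precursors (log2 difference -0.64 ± 0.16). Gpr17, a receptor of newly formed oligodendrocytes, was another (-0.41 ± 0.15, adjusted p = 0.033). Its call ended without acute mouse 4 at 1 h, acute mouse 1 or 4 at 2 h, challenge mouse 1 at 1 h or either challenge mouse at 2 h, with adjusted p between 0.067 and 0.103 in these fits. The 7 other genes of precursors and newly formed oligodendrocytes were not called and ranged from -0.42 (Cspg4) to 0.36 (Vcan). Summed, that list overlapped between acute (457.4 to 517.8 CPM) and challenge mice (344.3 to 556.2 CPM). Of the 23 genes of cholesterol synthesis tested, 3 fell and none rose, a share near the 9.22% of all tested genes, and the list's median was -0.09. They were Scd2, a fatty acid desaturase placed on this list (-0.61 ± 0.04), Hmgcs1 (-0.30 ± 0.08) and Sqle (-0.48 ± 0.14), of which Sqle stood at 0.07 at 0 h alone.

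**Figure D1:**
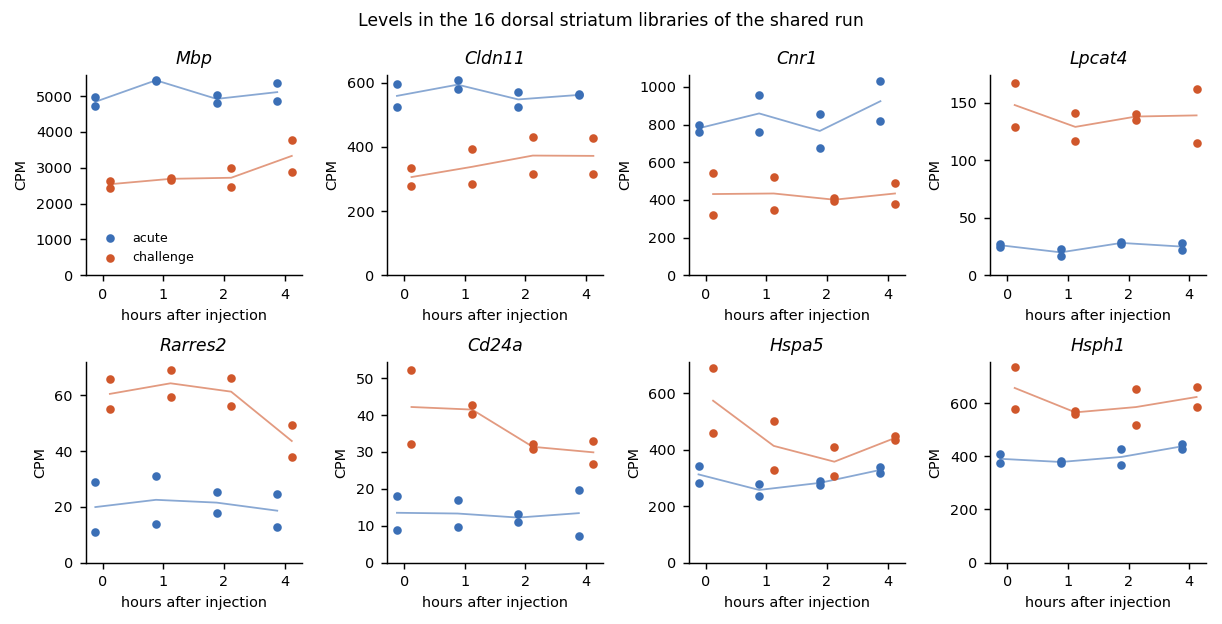
CPM (y axis, linear from 0) of 8 genes in the 16 libraries of the shared run against hours after the injection. Each point is a mouse, lines join the means of 2 mice, acute in blue and challenge in orange. Mbp, Cldn11 and Cnr1 sit lower in all challenge mice and Lpcat4, Rarres2, Cd24a and Hsph1 higher, while Hspa5 overlaps between the groups.

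Genes of motile cilia were higher in challenge mice. Of the 10 listed ependymal genes 8 could be tested, and these rose, against 10.8% of all tested genes, with a median log2 difference of 1.72. Except for Foxj1 and Rarres2, none of them would have passed the filter on low counts from the acute libraries alone, so that this count and median describe members that were high enough in challenge mice to be tested. With counts thinned to the smallest library 5 were called, and the others no longer passed the filter. The summed level of the 10 listed genes was 30.21 to 101.5 CPM in acute and 153.9 to 247.8 CPM in challenge mice. Ccdc153, a cilium protein, ranged over 0.89 to 16.6 CPM in acute and 15.5 to 36.5 CPM in challenge mice (log2 difference 1.98 ± 0.32, adjusted p = 4.1e-06), and 1 acute mouse reached into the challenge range. Rarres2, the chemokine-like protein chemerin, stood at 11.1 to 31 CPM in acute and 37.8 to 69.1 CPM in challenge mice, without overlap (1.49 ± 0.16). Foxj1, the regulator of motile cilia, rose by 1.07 ± 0.19. These genes are low in DS, and the lowest acute values rest on a few counts. Ependymal cells line the ventricle at the border of the dissected tissue, and how much of that border a sample held was not tested. The choroid plexus, which lies in the same ventricle, gave 29.61 CPM (challenge median) and 32.01 CPM (acute median), and the 1 gene of its list that could be tested was not called.

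Some genes of immature neurons rose as well. Of 13 tested, 7 rose and none fell, against 10.8% and 9.22% of all tested genes, with a median of 0.52. Cd24a, a surface protein of immature neurons that ependymal cells carry too, was 7.09 to 19.7 CPM in acute and 26.7 to 52.2 CPM in challenge mice (1.48 ± 0.19, adjusted p = 3.8e-08). Sox11, a transcription factor of differentiating neurons, ranged over 44.4 to 79 CPM and 72.8 to 117 CPM, with a log2 difference of 0.58 ± 0.11. Its groups overlapped at the edge. Sox4 (0.52 ± 0.16, adjusted p = 0.013) and Dcx, the microtubule protein doublecortin (0.54 ± 0.17, adjusted p = 0.016), overlapped widely. The call of Sox4 was lost under DESeq2 (adjusted p = 0.097), and both calls ended without the acute mouse at 0 h numbered 4 or the challenge mouse at 0 h numbered 1. The call of Sox4 also ended without challenge mouse 2 at 2 h and that of Dcx without challenge mouse 2 at 1 h, with adjusted p between 0.056 and 0.082 in these fits.

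Chaperones of the endoplasmic reticulum (ER) and the cytosol included genes that rose in challenge mice, although most members were not called as higher. Of 25 genes of the ER chaperone and unfolded protein response list, 11 rose and 2 fell, against 10.8% and 9.22% of all tested genes, with a median log2 difference of 0.26. Of 22 cytosolic chaperones and co-chaperones, 8 rose and none fell, with a median of 0.19, and of 7 subunits of the chaperonin TRiC, which folds actin and tubulin, 3 rose and none fell, with a median of 0.25. The ER list summed to 2835 to 3130 CPM in acute and 3233 to 4188 CPM in challenge mice, which did not overlap.

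Hspa5, the ER chaperone BiP, was 237 to 341 CPM in acute mice (median 286) and 305 to 688 CPM in challenge mice (median 441). The log2 difference was 0.61 ± 0.08 (adjusted p = 5.4e-08), and the groups overlapped. Pdia4, a disulfide isomerase of the ER, ranged over 23.1 to 32 CPM and 18.6 to 72.4 CPM (0.89 ± 0.15, adjusted p = 1.1e-05). A single challenge mouse, at 1 h, lay below every acute mouse, and the 7 others lay above. Calr, a calcium-binding ER chaperone, rose from 357 to 475 CPM in acute to 479 to 661 CPM in challenge mice without overlap (0.50 ± 0.05). Ddit3, a transcription factor induced by ER stress, differed by 0.71 ± 0.11.

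Hsph1, a co-chaperone of the HSP70 family, stood at 369 to 446 CPM in acute and 517 to 738 CPM in challenge mice (0.62 ± 0.05, adjusted p = 1.7e-12), and Hspa8, the constitutive HSP70, at 635 to 808 CPM and 812 to 1348 CPM (0.58 ± 0.06). Neither overlapped between the groups. Stip1, which couples HSP70 to HSP90, rose by 0.63 ± 0.08, and the TRiC subunits Cct5 and Tcp1 rose by 0.41 ± 0.07 and 0.33 ± 0.06. At 0 h alone the log2 differences were 0.91 for Hspa5, 1.26 for Pdia4, 0.78 for Hsph1 and 0.80 for Hspa8, and in the mice taken after the injection they were 0.50, 0.76, 0.57 and 0.51.

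Members that moved together were searched for the elements by which these genes are known to be induced. The windows were the 250 bases before to 50 after each RefSeq transcription start (build GRCm38.p6), 1 window a gene, found for 8691 of the tested genes. The ER stress response element was read as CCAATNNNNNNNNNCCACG and the heat shock element as GAANNTTCNNGAA, each on both strands, and no window held both. The first match of each window is shown in capitals with the bases beside it, in the direction of the gene. Chordc1 holds 3 and Hspe1 2 overlapping matches, and the further ones run on into bases shown in lower case. Pdia6 and Hspe1 were named after their values were seen, because their windows hold a match.
Hspa5: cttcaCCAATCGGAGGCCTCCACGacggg
Calr: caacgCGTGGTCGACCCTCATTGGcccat
Pdia6: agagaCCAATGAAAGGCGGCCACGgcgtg
Hsph1: gcagaTTCTGGAAAGTTCt
Chordc1: aaccgGAACGTTCGGGAAaattc
Hspe1: gtccgTTCTAGAACCTTCcggaa
The Hspa5 stretch lies on the forward strand at chr2:34772020-34772048, with its match beginning 65 bases before the start of transcription, and that of Calr on the reverse strand at chr8:84847070-84847098. The ER element was in 12 of 8691 windows (0.138%), in 3 of 9 windows of ER chaperone genes that rose (Hspa5, Calr and Pdia6) and in 5 of 12 windows of members of the same list that were not called. The heat shock element was in 31 windows (0.357%), in 3 of 7 windows of cytosolic chaperone genes that rose (Hsph1, Chordc1 and Hspe1) and in 0 of 11 of those not called. The other stretches lie at chr12:17266486-17266514 (Pdia6), chr9:18292258-18292280 (Chordc1) and chr1:55088054-55088076 (Hspe1) on the forward strand and at chr5:149636287-149636305 (Hsph1) on the reverse strand. A match is a stretch of letters and was not measured as a bound site.

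Genes of oxidative phosphorylation, the ribosome and the proteasome rose in large numbers in challenge mice. Of 77 genes of oxidative phosphorylation, 36 rose and 2 fell (median 0.22), against 10.8% and 9.22% of all tested genes, of 81 cytosolic ribosomal protein genes, 26 rose and 1 fell (median 0.20), of 36 proteasome genes, 13 rose and none fell (median 0.16), and of 17 genes of glycolysis, 4 rose and 1 fell (median 0.15). The CPM did not overlap between the groups for 23 genes of oxidative phosphorylation that were higher and 3 that were lower, against 2.73% and 2.59% of all tested genes. Ndufa3, a subunit of respiratory complex I, was 441 to 506 CPM in acute and 653 to 766 CPM in challenge mice (0.64 ± 0.04, adjusted p = 2.3e-15). Rps26, a protein of the small ribosomal subunit, was 339 to 391 CPM and 507 to 706 CPM (0.80 ± 0.05), and Psmb7, a catalytic subunit of the proteasome, 125 to 145 CPM and 214 to 283 CPM (0.87 ± 0.06).

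The oxidative phosphorylation and ribosomal lists hold short transcripts, and transcript length moved with the difference over all genes. The median length was 918 bases for the former and 914 bases for the latter, 2786 bases for glycolysis, and 3358 bases over all tested genes. Genes called higher had a median length of 2061 bases and genes called lower 4404 bases. In the 20% of genes with the shortest transcripts the median log2 difference was 0.16, and in the 20% with the longest it was -0.10. Across 10930 genes, which are no independent replicates, Spearman's rho was -0.30 with length and 0.31 with the GC content of the last 500 bases. When each gene was set against genes of like length and GC content, the median of oxidative phosphorylation was 0.02, that of ribosomal proteins -0.05, that of the proteasome 0.04 and that of glycolysis 0.04. The same centring left the myelin median at -0.38, the ependymal median at 1.48, the immature neuron median at 0.56, the ER chaperone median at 0.18 and the cytosolic chaperone median at 0.23.

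**Figure D2:**
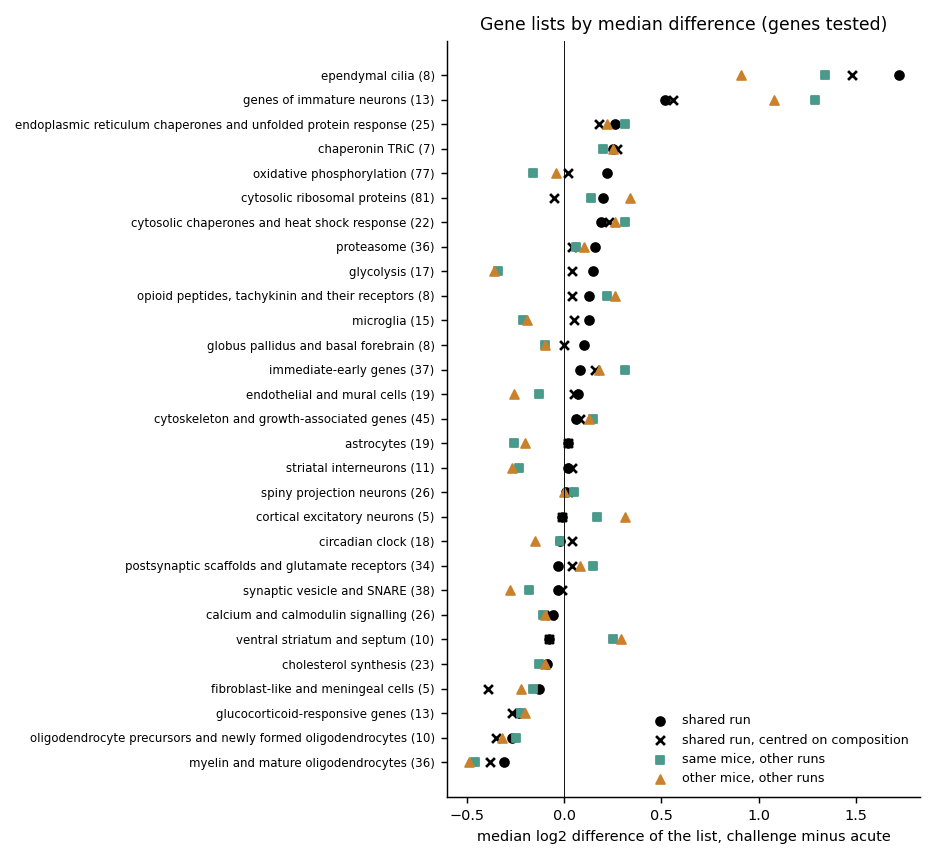
Median log2 difference, challenge minus acute (x axis), of each list with at least 5 tested genes (y axis, number tested in parentheses). Black circles are the shared run, crosses the shared run centred on transcript GC and length, squares the same mice and triangles other mice in other runs; ependymal, immature neuron, chaperone and myelin lists lie on the same side of 0 in all 4, glycolysis and oxidative phosphorylation do not.

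Some of the widest differences without overlap were in genes outside the lists. Lpcat4, an acyltransferase of membrane phospholipids, gave the largest log2 difference among the genes without overlap, 2.51 ± 0.11 (adjusted p = 2.0e-22): it was 16.6 to 28.8 CPM in acute and 115 to 167 CPM in challenge mice. Cnr1, the cannabinoid receptor CB1 of spiny projection neurons and their inputs, was 678 to 1026 CPM in acute and 320 to 543 CPM in challenge mice, without overlap (-0.94 ± 0.08, adjusted p = 1.4e-13). Ryr2, a calcium release channel, was 36.2 to 48.2 CPM and 13.5 to 33.1 CPM (-0.94 ± 0.14). The repeated-cocaine mice of the same run, a further cohort, stood at 104 to 165 CPM for Lpcat4 and 422 to 539 CPM for Cnr1, so that their levels resembled those of challenge mice more than those of acute mice.

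Projection neuron and interneuron markers were called in both directions. Of 26 markers of spiny projection neurons, 5 rose and 4 fell, against 10.8% and 9.22% of all tested genes, with a median of 0.01. Pde1b, a calmodulin-dependent phosphodiesterase of these neurons, rose by 0.29 ± 0.04. Pdyn, which encodes prodynorphin, rose by 0.57 ± 0.09 (adjusted p = 3.3e-06) over 103 to 150 CPM and 120 to 255.3 CPM. Of 11 interneuron genes tested, 3 rose and 1 fell, against the same shares of all tested genes, with a median of 0.02. Among them, Sst (somatostatin) was 332 to 406 CPM in acute and 620 to 740 CPM in challenge mice (0.94 ± 0.05, adjusted p = 1.9e-19), and Npy (neuropeptide Y) rose by 0.65 ± 0.07. Slc5a7, the choline transporter of cholinergic interneurons, fell by 0.74 on the log2 scale, without overlap. Slc18a3 (0.09) and Nos1 (-0.02), of the same list, were not called.

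Synaptic genes were called in both directions at shares near those of all tested genes (10.8% higher and 9.22% lower), and the calcium signalling genes that were called were mainly lower. Of 38 genes of synaptic vesicles and SNARE proteins, 5 rose and 5 fell. Vamp2, the vesicle SNARE, rose by 0.55 ± 0.04 and Syt1, the calcium sensor of release, differed by -0.28 ± 0.04, a call that was lost on the fold threshold without either of 2 challenge mice (-0.26 in both fits). Of 34 postsynaptic genes, 5 rose and 4 fell. Shank3, a scaffold of excitatory synapses, was 101 to 122 CPM in acute and 190 to 276 CPM in challenge mice (1.02 ± 0.07). Of 26 calcium and calmodulin genes, 1 rose and 7 fell. Their summed level was 36050 to 38790 CPM in acute and 33630 to 35190 CPM in challenge mice, without overlap. Prkcb, a protein kinase C, fell by 0.51 on the log2 scale.

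Astrocyte and microglial genes were called in both directions, and the globins rose. Of 19 astrocyte genes, 5 rose and 4 fell, against 10.8% and 9.22% of all tested genes: Mt3, a metallothionein, rose by 0.70 ± 0.04, and the glutamate transporter Slc1a2 differed by -0.43 ± 0.03. Of 15 microglial genes, 4 rose and 1 fell, and C1qb, a complement subunit, rose by 0.67 ± 0.08. All 4 tested genes of the blood list, which encode the chains of haemoglobin, rose, with a median log2 difference of 0.65. Set against genes of like length and GC content, the median was 0.26. They are near-identical copies in pairs, so that reads may be split between them. Hbb-bs ranged over 166 to 220 CPM in acute and 201 to 493 CPM in challenge mice (0.50 ± 0.08), so that globin transcripts moved with the groups. The part of blood in the other results was not tested.

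Some immediate-early genes were higher in challenge mice, and most were not called. Of 37 tested, 8 rose and none fell, against 10.8% and 9.22% of all tested genes, and the list's median was 0.08. No member was without overlap over the 4 times pooled. Fos, the AP-1 factor, was not called (-0.38). Fosb, a transcription factor of the AP-1 complex, had in acute mice 8.36 and 11.6 CPM at 0 h, 62.5 and 75.1 at 1 h, 16.7 and 55.5 at 2 h and 17.9 and 26.6 at 4 h. In challenge mice it had 21.5 and 23.8 CPM at 0 h, 108 and 92.9 at 1 h, 59.2 and 136 at 2 h and 48.6 and 88.3 at 4 h. At every time both challenge mice exceeded both acute mice, and the log2 difference was 1.19 ± 0.18 (adjusted p = 1.7e-06).

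Dusp14, a phosphatase that acts on MAP kinases, had an acute mean of 109 CPM at 0 h, a peak of 238 CPM at 1 h and 132 CPM at 4 h. The challenge mean was already 191 CPM at 0 h, and was 275 CPM at 1 h, 287 CPM at 2 h and 256 CPM at 4 h (0.67 ± 0.09). Nptx2, a secreted pentraxin of synapses, rose by 0.75 ± 0.13. Junb, an AP-1 factor, went from 147 CPM at 0 h to 770 CPM at 1 h in acute mice and from 192 CPM to 883 CPM in challenge mice, with a log2 difference of 0.40 ± 0.08 over the times.

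The test of whether the difference between challenge and acute changed with time called 0 of 10998 genes (0%) with edgeR. At an unadjusted p below 0.05 it held 632 genes, and the lowest adjusted p was 0.373. DESeq2's likelihood ratio test called 2 genes, Midn and Apoo (adjusted p = 0.035 for both). Without the filter on low counts edgeR called 8 genes, which are named here for that reason: Midn, Apoo, Ap2b1, Bmp7, the immediate-early genes Nr4a1 (adjusted p = 5.8e-07, against 0.599 with the filter), Egr2 (0.016, against 0.733) and Egr1 (0.046, against 0.812), and Mbp (0.023, against 0.812). The log2 difference of Nr4a1, a nuclear receptor, was 0.53 at 0 h, -0.48 at 1 h, 0.04 at 2 h and -0.71 at 4 h, and that of Mbp was -0.90, -0.99, -0.83 and -0.60. Midn, a nuclear protein of protein turnover that is itself induced early, had 26.5 and 32.4 CPM in acute and 73.7 and 98.1 CPM in challenge mice at 0 h, but 42.2 and 37.7 CPM against 43.7 and 35.0 CPM at 4 h. With 2 mice a time point, a changing difference had to be large to be seen.

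**Figure D3:**
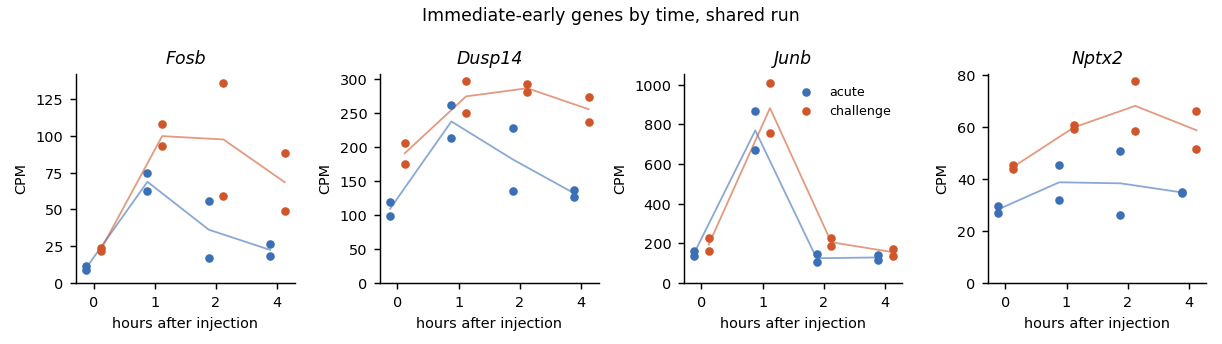
CPM (y axis, linear from 0) of 4 immediate-early genes against hours after the injection in the shared run, acute in blue and challenge in orange, each point a mouse and lines joining means of 2 mice. Fosb and Nptx2 are higher in challenge mice at every time, Dusp14 is already higher in challenge mice at 0 h and stays high there to 4 h, and Junb peaks at 1 h in both.

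Set against the 8 repeated-cocaine mice of the shared run, which had daily doses up to the fifth (0 h mice were taken a day after the fourth), 454 of 11210 genes were called, of which 232 were higher in challenge mice (2.07% of those tested) and the others lower (1.98%), in a fit of all 24 libraries. The challenge mice enter both comparisons, so they are not independent. Of 37 immediate-early genes, 18 were called higher in challenge mice (median 0.36), with Fosb at 1.19 and Dusp14 at 0.88. Cytosolic chaperones rose in 9 of 22, with Hsph1 at 0.39, and genes of the ER list in 4 of 25, with Hspa5 at 0.61. Myelin genes fell in 8 of 36 (median -0.18), with Mbp at -0.39 and Mobp at -0.52. Ependymal and immature neuron genes gave no call against repeated cocaine (0 of 8 and 0 of 13 with edgeR, medians 0.26 and 0.05). At an unadjusted p below 0.05 there were 0 and 1, and DESeq2 called 0 and 0. The repeated mice's summed ependymal level was 101 to 186.3 CPM.

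The direction of each called gene was then read in the DS libraries of other runs. There were 31 such libraries: 16 from the same mice (8 acute, 8 challenge) and 15 from other mice of the same groups (8 acute, 7 challenge). All the acute ones were sequenced in 1 run and all the challenge ones in another, so that run and experience cannot be told apart there. In the same mice 23.9% of genes tested were called higher and 22.7% lower, and in the other mice 21.7% and 21.2%.

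Most genes called in the shared run did not keep their direction. Of 2199 that could be tested, 900 kept it over all 31 libraries (40.9%), 842 in the same mice (38.3%) and 939 in the other mice (42.7%). Over all tested genes, called or not, the sign was the same in 44.4%, 43.5% and 44.8%. In the other mice 485 of the 1186 genes called higher kept their direction (225 of them called again), and 366 were called the opposite way. Of the 1013 called lower, 454 kept it (197 called again) and 250 were called the opposite way. Among the 2199, 767 kept their direction in both sets of mice, 401 higher and 366 lower, and 333 were called in that direction in both. Another 1185 went the opposite way in both, and 546 of these were called so.

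In the other runs the difference followed base composition closely. Between the 20% of genes with the lowest transcript GC content and the 20% with the highest, the median log2 difference went from 0.31 to -0.35 in the same mice and from 0.31 to -0.34 in the other mice, with a Spearman's rho of -0.59 across genes in each, whereas in the shared run it went from -0.06 to 0.07 (rho 0.17). With the differences of the other runs set against genes of like GC content and length, 1148 of 2184 genes kept their direction in the other mice (52.6%, against 50.6% of all tested genes) and 1117 in the same mice (51.1%, against 49.2%).

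**Figure D4:**
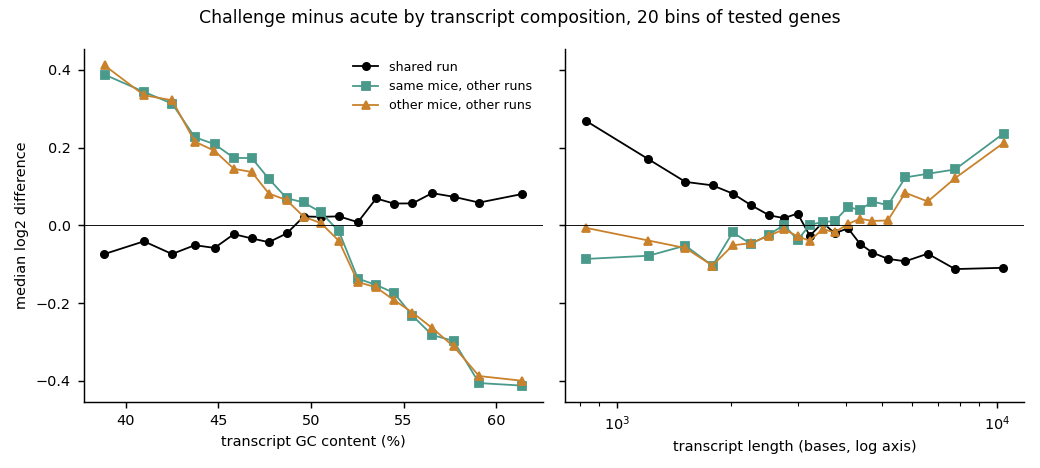
Median log2 difference, challenge minus acute (y axis), in 20 bins of tested genes by transcript GC content in percent (left) and transcript length in bases (right, log axis), for the shared run, the same mice and other mice in other runs. The other runs fall steeply with GC content while the shared run rises slightly, and the shared run falls with length.

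Myelin genes kept their direction. Of the 20 called members, 17 kept it in the same mice and 19 in the other mice, where the list's medians were -0.46 and -0.49. In the other mice Mbp was at -0.69 ± 0.06, Cldn11 at -0.83 ± 0.06, Mobp at -0.87 ± 0.06 and Fa2h at -0.71 ± 0.12, each called. Of the 3 called genes of precursors and newly formed oligodendrocytes, 2 kept their direction in both sets of mice. All 8 ependymal genes called and all 7 immature neuron genes called kept theirs in both sets of mice, with list medians of 0.91 and 1.08 in the other mice. Except for Foxj1 and Rarres2, these ependymal genes could be tested only because they were high in the challenge mice of the shared run. Their direction in the same mice is thus no separate support. Sox11 was at 1.37 ± 0.11, Cd24a at 1.13 ± 0.24 and Ccdc153 at 1.23 ± 0.20 in the other mice, while Foxj1 was not called (0.58 ± 0.28).

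Chaperone genes kept their direction in most cases. Of the 13 called on the ER list, 8 did so in the other mice, of the 8 cytosolic chaperones 7, and of the 3 TRiC subunits 3. In the other mice Pdia4 (1.80 ± 0.14), Hspa5 (0.79 ± 0.11) and Hsph1 (0.37 ± 0.09) were each called higher. Calr and Ddit3 went the other way (-0.21 and -0.30). Of other genes named above, Hbb-bs (0.58 ± 0.10), Pdyn (0.67 ± 0.09) and Dusp14 (0.46 ± 0.10) were called higher again. Of 8 immediate-early genes called, 7 kept their direction in the same mice and 6 in the other mice. Fosb was an exception: it stood at 0.35 in the same mice and at -0.44 ± 0.10, called lower, in the other mice.

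Most called genes of energy metabolism and several neuronal genes did not keep their direction in the other mice. Of 38 called genes of oxidative phosphorylation, 5 kept it in the same mice and 9 in the other mice, against 38.3% and 42.7% of all called genes. Of 5 called in glycolysis, 0 and 1 did, and of 5 called in microglia and 4 among interneuron genes, 0 in both sets. Of 13 called in the proteasome, 3 and 5 did, and of 8 called in calcium signalling, 5 and 3. In the other mice these 2 lists were near the share of all called genes. Of the 36 proteasome genes tested in the shared run, 11 were called higher and 2 lower in the other mice, against 21.7% and 21.2% of all tested genes. Sst went from 0.94 in the shared run to -0.35 ± 0.06 in the other mice, Ncdn, a neuronal cytoplasmic protein, from 0.65 to -0.91 ± 0.06, Shank3 from 1.02 to -0.43 ± 0.09, Vamp2 from 0.55 to -0.52 ± 0.05 and C1qb from 0.67 to -0.64 ± 0.07, each called in both. The same mice gave -0.37 for Sst and -0.90 for Ncdn, so that the sign turned within animals measured in both runs. Of 27 called ribosomal protein genes, 14 kept their direction in the same mice and 24 in the other mice, with Rps26 at 0.29 and 0.54.

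Among the widest reversals were Rps27rt, a retrogene copy of a ribosomal protein gene, and Gm11808, a predicted gene. Reads of such a copy can be shared with its source gene, which makes the value of Rps27rt uncertain. Their log2 differences were 1.59 and 1.52 in the shared run and -1.34 and -1.54 in the other mice. Klf9, a transcription factor induced by glucocorticoids, differed by -0.47 ± 0.05 in the shared run and by 2.02 ± 0.08 in the other mice. Lpcat4 (0.68 ± 0.10) and Cnr1 (-0.35 ± 0.09) were called in the same direction in the other mice as in the shared run, where they stood at 2.51 and -0.94.

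**Figure D5:**
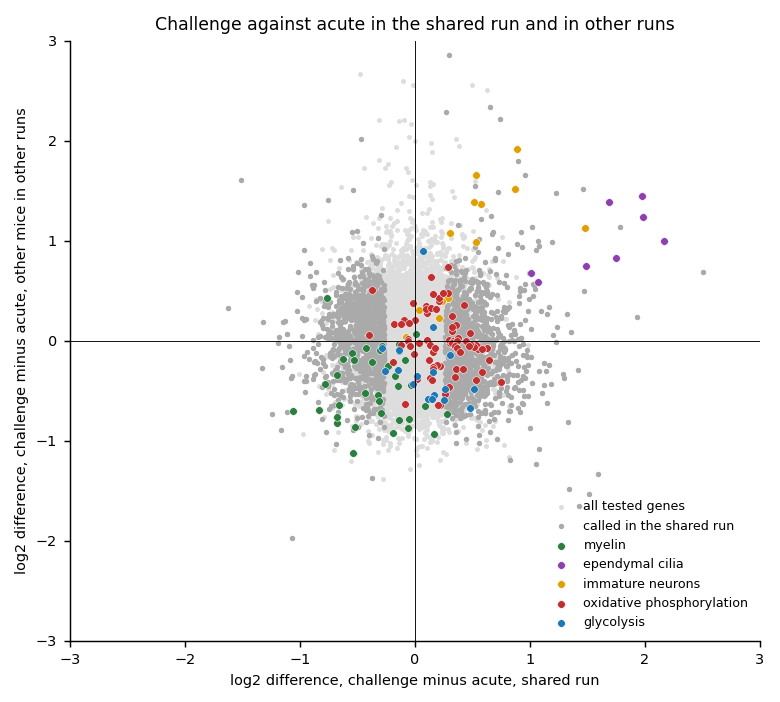
Log2 difference, challenge minus acute, in the shared run (x axis) against that in other mice of other runs (y axis), with all tested genes in light grey, called genes in dark grey and 5 lists in colour. Myelin genes gather at lower left and ependymal and immature neuron genes at upper right, while most genes of oxidative phosphorylation lie right of 0, on both sides of the horizontal line, with 2 called lower at left. Glycolysis genes lie on both sides of both lines.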

How the data were processed

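The authors made 3′-RNA-seq libraries from 100 ng RNA, aligned them with STAR to GRCm38, collapsed molecular identifiers and counted genes with HTSeq, per the methods and the submitters' processing notes (versions not given in the sources used here). The deposited table holds raw counts of 19363 genes, of whose columns 72 from the DS were read and 122 were not used. Groups, run and mouse came from the labels. Counts were filtered by expression within experience, scaled by TMM and tested with edgeR 4.0.16 (R 4.3.3), with time as a factor and all p-values adjusted over all genes tested. DESeq2 1.42.0, RLE scaling, other filters, counts thinned to the smallest library, single times, a replicate block and leaving out each mouse were alternatives. CPM are scaled by TMM over the 24 libraries of the shared run. Transcript length and GC content came from GENCODE M21 (GRCm38), the longest coding transcript of each symbol, for 99.4% of tested genes. Centring subtracted medians within 25 bins of each property and was added after seeing the data. Depth limits low genes, and the smallest values rest on a few counts.

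Genes were named by a rule: the 8 largest rises and falls among called genes with at least 20 mean counts and no overlap, the 5 lowest adjusted p in each direction, up to 5 members of each of 32 lists, 3 by the interaction and the 3 widest reversals of each direction, some of which are not reported here. Members and lists were chosen with earlier results of these data known. The test was checked on simulated counts with known changes. The labels give mice as separate animals.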

Additional observations from a re-analysis of the deposited data

Results flagged for a closer look

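In each group of 8 mice of the shared run, the highest and lowest mouse were set against the others by Dixon's ratio for the named genes and the total count, which chance flags in about 1 of 20 groups. It flagged 6 of 180. Mbp stood at 3784 CPM in a challenge mouse at 4 h (replicate 2), against 2440 to 2998 CPM in the 7 others, and the same mouse was also highest in its library of another run (5085 CPM, others 3185 to 3958). Hbb-bs was 492.8 CPM in a challenge mouse at 1 h (replicate 1), against 201.3 to 282.5, and 824.8 CPM in its other library, against 344.5 to 469.6. Pdia4 was 18.59 CPM in a challenge mouse at 1 h (replicate 2), against 44.2 to 72.39, while its other library (26.88 CPM) lay within the others' range of 21.52 to 46.1. Tmem212, a ciliary gene, was 5.894 CPM in a challenge mouse at 2 h (replicate 2), against 15 to 31.67, and its other library (28.68 CPM) lay within 21.52 to 31.99. Ppib was 239.1 CPM in a challenge mouse at 2 h (replicate 1), against 142.8 to 177.8, and 174.8 CPM in its other library, against 139 to 170.1. Tagln, of smooth muscle, was 11.11 CPM in a challenge mouse at 4 h (replicate 2), against 22.24 to 39.95, and 20.09 CPM in its other library, against 20.84 to 35.07.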

How the results depend on the processing

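Without each mouse in turn, the genes called higher against acute numbered 1039 to 1170 and those called lower 896 to 1031, those against repeated cocaine 191 to 262 and 165 to 251, and the genes whose difference changed with time 0 to 0. At 0 h alone 212 were higher and 128 lower against acute, and above a fold of 1.5 there were 318 and 235. Replicate numbers did not pair the mice (correlation -0.02 between same-numbered mice at 4 h). A replicate block, which spends several degrees of freedom, left 534 higher and 392 lower against acute and 21 and 12 against repeated cocaine. Under it 12 of the named genes lost the call. Challenge mice carried other replicate numbers than the repeated mice and than most acute mice. The block thus also takes up part of the group difference, and its counts cannot gauge how robust the calls are. The change with time gave 2 genes with DESeq2 and 8 without a filter. In the other mice, where 21.7% of all tested genes were called higher, 15 genes of oxidative phosphorylation (17 lower), 47 ribosomal protein genes and 13 immature neuron genes (11 of them among the members tested in the shared run) were called higher, and thinned to the smallest library 5 ependymal genes were. Sqle was 0.0739 at 0 h alone, the only named gene to change sign. Of 89 named genes, 4 (Gpr17, Syt1, Sox4 and Dcx) lost the call without some mouse. RLE scaling, DESeq2, thinning and either filter kept the counts against acute within 1.5 times. Depth was lower in all challenge libraries, and run cannot be told apart from experience outside the shared run.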

Other observations

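Of 13 glucocorticoid-responsive genes, 4 fell and 1 rose in challenge mice of the shared run (median -0.23), against 9.22% and 10.8% of all tested genes. Sgk1, a kinase induced by corticosteroids, ranged over 135 to 295 CPM in acute and 75.9 to 174 CPM in challenge mice (-0.70 ± 0.09, adjusted p = 6.6e-08), and against repeated cocaine it differed by -0.58. In the other mice of other runs Sgk1 was at -0.15 ± 0.12 and was not called. Of 18 clock genes, 2 rose and 2 fell, a share near that of all tested genes, among them Hlf (-0.42 ± 0.07), which was not called in the other mice (-0.15 ± 0.08).

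Of 45 cytoskeletal and growth-associated genes, 12 rose and 6 fell, against 10.8% and 9.22% of all tested genes. Gap43, a protein of growing axon endings, was 371 to 440 CPM in acute and 477 to 585 CPM in challenge mice (0.43 ± 0.05), and was called in the same direction in the other mice (0.64 ± 0.06). Crym, a thyroid hormone binding protein graded along the striatum, was 350 to 437 CPM and 500 to 676 CPM (0.68 ± 0.05), and 0.28 ± 0.07 in the other mice. Ptgds, a prostaglandin synthase of meninges and oligodendrocytes, differed by -0.38 ± 0.06 in the shared run and by -1.38 ± 0.09 in the other mice. Tagln, of smooth muscle, gave 5.14 to 10.4 CPM in acute and 11.1 to 40 CPM in challenge mice (1.93 ± 0.23) and was not called in the other mice (0.23 ± 0.30).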
